A study of Mus musculus with 9 samples.

Results

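The cerebral cortex of C57Bl/6 mouse embryos at E13.5 (days of embryonic development) was compared between a double knockout (DKO) and its Smarca1 knockout (Smarca1 KO) reference, using 6 of the 9 RNA-seq libraries of the series. Both groups are Smarca1 -/-. The DKO libraries are labelled Cre +/- and the Smarca1 KO libraries Cre -/-, with 3 libraries each, and the series' design text lists a double knockout of Smarca5 and Smarca1 beside the other 2 groups. The remaining 3 libraries are wild type (WT), Smarca1 +/+ and Cre -/-, and entered the fit and the side-by-side levels. Whole cortical tissue was used, so no cell type was isolated. The sources used here do not give the Cre driver, the deleted exons or the Smarca5 alleles carried by embryos without Cre. Nor do they state that each library is its own embryo, and p-values therefore reflect the scatter of these libraries, part of which may be technical.

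Smarca5 (SNF2H) and Smarca1 (SNF2L) are the ATPase motors of the ISWI chromatin remodelling complexes. These complexes slide nucleosomes along DNA and space them evenly, and they are known for roles in DNA replication, in the binding of the insulator protein CTCF and in the division of neural progenitors. At E13.5 the cortical wall holds dividing radial glia, intermediate progenitors derived from them and the first deep-layer neurons. The comparison holds the Smarca1 genotype constant and so concerns the Cre and the loss of Smarca5 in tissue labelled Smarca1 -/-.

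Counts summed over genes were 27466225 to 46007718 per library. The spread among replicates, as a biological coefficient of variation, was 13.3% in Smarca1 KO, 11.2% in DKO and 4.8% in WT, and the fit over 9 libraries pooled it to 10.2%. The pooled value is below that of either group compared. The cortical gene Emx1 was present in all 9 libraries, at 50.7 to 83.1 CPM (read counts relative to the TMM-scaled library size), and the spinal cord genes Hoxa5, Hoxb8 and Hoxc10 were at 0 in all 9. Replicate 1 of both groups stood apart in the 24 genes of meninges and mesenchyme, which summed to 1422 CPM in replicate 1 of Smarca1 KO and 1490 CPM in replicate 1 of DKO against 725.0 to 859.0 CPM in the other 4 libraries. The WT libraries lay in between, at 1210, 1274 and 1128 CPM. The Y-linked genes Ddx3y, Eif2s3y, Kdm5d and Uty were expressed in all 9 libraries, with a highest level 1.10 to 1.39 times the lowest.

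Smarca5 RNA stood at 245.8, 243.1 and 212.2 CPM in the Smarca1 KO libraries and at 84.4, 79.2 and 77.2 CPM across DKO, against 267.4, 270.7 and 262.0 CPM in WT. The DKO libraries lay far below the others without overlap, at a mean of 34.3% of the Smarca1 KO level (adjusted p = 2.99e-06, log2 fold change −1.54 with SE 0.061, 6-library adjusted p = 0.000365), and the call held in 19 of 19 alternative settings. Smarca1 RNA was 42.3, 35.3 and 43.8 CPM across Smarca1 KO and 37.9, 38.8 and 38.4 CPM across DKO (adjusted p = 0.644, log2 fold change −0.08 with SE 0.073, 6-library adjusted p = 0.761). WT stood at 37.8, 36.4 and 37.3 CPM, within the Smarca1 KO range. By mean, Smarca1 RNA was not lower in either group labelled Smarca1 -/- than in WT. RNA outside the removed exons can persist, so the Smarca1 counts check neither label. Of the other 15 tested ISWI subunit genes none was called by edgeR's quasi-likelihood test. Over all 16, with Smarca5, an unadjusted p under 0.05 was reached by 4, and 2 were called by DESeq2.

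Of 15773 genes tested, 692 were called at an adjusted p under 0.05 (4.39%). There were 273 higher in DKO (1.73%) and 419 lower (2.66%). Most changes were small: 409 of the 692 were under 1.5-fold, 62 were over 2-fold higher and 76 over 2-fold lower, and the median log2 fold change over all genes tested was 0.004. The 3 DKO and the 3 Smarca1 KO libraries did not overlap for any of the 692, whereas 3226 genes (20.5%) showed no overlap in all. The number of calls depended on the libraries fitted. In a fit of the 6 libraries alone, 181 of 15662 genes were called (1.16%), of which 68 were higher and 113 lower, and 180 of the 181 were also among the 692. Calls dropped to 444, 286 and 288 without DKO 1, 2 and 3, to 354 without Smarca1 KO 2, and to 417, 422 and 418 without WT 1, 2 and 3. The adjusted p of the fit of 6 libraries, written as the 6-library adjusted p, is therefore given beside each called gene described. It is not given for the copies of Rps18 described further on.

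**Figure D1:**
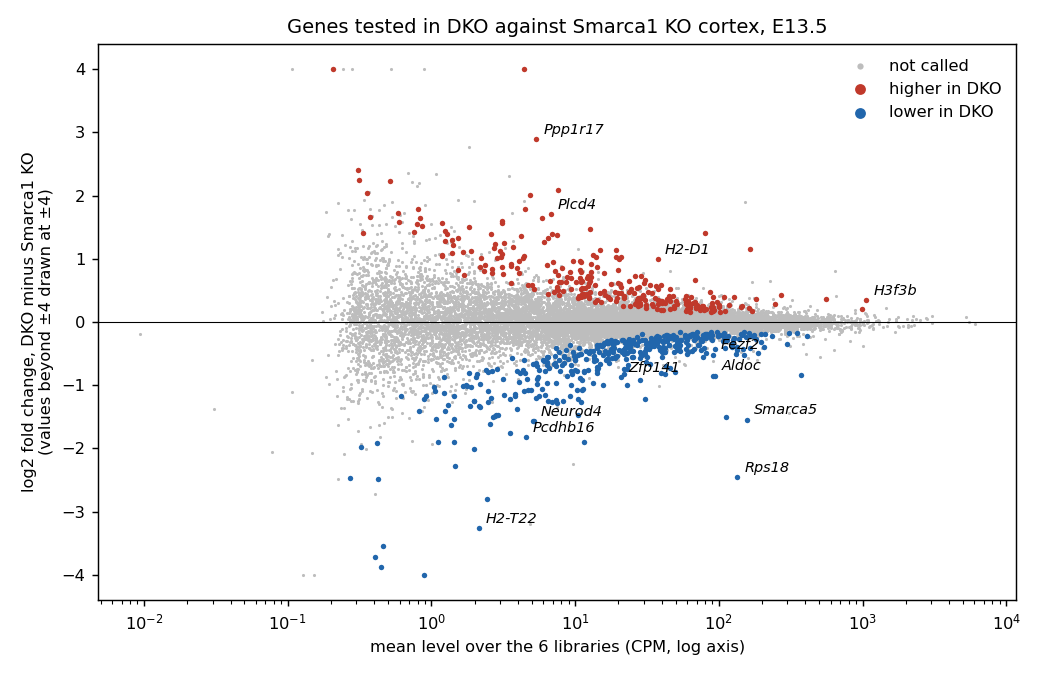
Each point is one of 15773 genes. The horizontal axis is the mean CPM over the 6 libraries (log scale) and the vertical axis the log2 fold change, DKO minus Smarca1 KO, drawn at ±4 where larger. Blue points are the 419 genes called lower and red points the 273 called higher. Smarca5 and Rps18 stand out among abundant genes, at −1.54 and −2.46.

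Zinc finger genes with a Zfp symbol formed the most numerous group among the falls. Many of them encode KRAB zinc finger proteins, DNA-binding repressors that occur as tandem arrays of related genes and are known for silencing retrotransposons. Of 375 tested Zfp genes, 50 were lower in DKO (13.3%) and 2 higher, against 2.40% lower among the other genes tested. Their median log2 fold change was −0.09, and 274 of the 375 were below 0. The fit of 6 libraries alone kept 19 of the 50. The count was 28, 28 and 27 without DKO 1, 2 and 3, 30 without Smarca1 KO 2, and 37 to 45 without any other single library.

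Zfp141, with 25.1% of its 31-base sequences (31-mers) found in other genes (chromosome 7, 42473386 to 42505740 on GRCm38) was at 25.9, 27.9 and 26.9 CPM in the Smarca1 KO libraries, 14.3, 14.96 and 14.8 CPM in the DKO libraries and 24.5, 25.3 and 22.9 CPM in the WT libraries. The 3 DKO libraries lay within 1 CPM of each other and below all others (adjusted p = 0.000147, log2 fold change −0.87 with SE 0.062, 6-library adjusted p = 0.00321). Zfp239 (chromosome 6, 117862100 to 117873291) fell from 26.7, 31.5 and 27.8 CPM to 17.8, 17.3 and 18.6 CPM (adjusted p = 0.00274, log2 fold change −0.68 with SE 0.079, 6-library adjusted p = 0.0223), with none of its 31-mers in another gene. Zfp976 (35% of 31-mers shared) fell further, from 8.37, 8.94 and 5.76 CPM to 3.14, 2.46 and 2.18 CPM (adjusted p = 0.00341, log2 fold change −1.57 with SE 0.19, 6-library adjusted p = 0.0331). In all 3 the DKO libraries did not overlap Smarca1 KO, as in all 692 called genes. Zfp992 (−1.24, adjusted p = 0.00312, 6-library adjusted p = 0.0313) and Zfp970 (−1.15, adjusted p = 0.00312, 6-library adjusted p = 0.034) fell by more than 2-fold, but 48.4% and 67.9% of their 31-mers occur in other genes, so the division of reads among copies is uncertain for these. Zik1, a zinc finger gene with another style of symbol, fell from 95.7, 94.2 and 87.03 CPM to 67.5, 63.6 and 58.2 CPM (adjusted p = 0.00169, log2 fold change −0.55 with SE 0.059, 6-library adjusted p = 0.0233). The 2 Zfp genes called higher were Zfp868 (0.34, adjusted p = 0.00268, 6-library adjusted p = 0.0315) and Zfp9 (0.39, adjusted p = 0.041, 6-library adjusted p = 0.14), the latter named after its values were seen. By mean Zfp868 was at 40.1 CPM in Smarca1 KO, 50.7 CPM in DKO and 55.3 CPM in WT, so WT lay nearer to DKO.

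The lower Zfp genes lay mainly in arrays. Of 204 Zfp genes with at least 3 other tested Zfp genes within 1 Mb, 42 were lower (20.6%, median log2 fold change −0.13). Of 64 with 1 or 2 such neighbours 4 were lower (6.25%, median −0.09), and of 107 with none 4 were lower (3.74%, median −0.04). Arrayed genes also share more sequence and had a lower median level, 18.3 CPM against 42.4 CPM for the solitary genes. Among genes with under 10% of their 31-mers in other genes, an alternative chosen after seeing the data, 25 of 276 were lower (9.06%), and 19 of the 132 that were also arrayed (14.4%). These classes were not tested against each other, since neighbours within an array are not independent.

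Sums over arrays do not depend on how reads were divided among the genes summed. In 19 windows of 5 Mb with at least 5 tested Zfp genes, the summed Zfp level of the 3 DKO libraries lay below all 3 Smarca1 KO libraries in 12, and the DKO mean was 61.2% to 103.3% of the Smarca1 KO mean. Of all single genes tested 20.5% showed no overlap, in either direction, and no such share was computed for sums. On chromosome 4 between 145 and 150 Mb, 8 Zfp genes summed to 59.4, 72.1 and 66.1 CPM across Smarca1 KO and 43.0, 43.2 and 47.4 CPM across DKO, with 68.7, 68.6 and 61.3 CPM in WT. This array fell to 67.6% of the Smarca1 KO mean without overlap. On chromosome 17 between 20 and 25 Mb, 11 of 24 Zfp genes were lower, and the sum was 549.4, 577.6 and 566.0 CPM against 478.4, 497.2 and 495.3 CPM. That array includes Zfp820 (−1.16, adjusted p = 0.00413, 6-library adjusted p = 0.0365) and Zfp677 (−0.94, adjusted p = 0.00754, 6-library adjusted p = 0.04), both named after their values were seen. Other arrays shifted little. On chromosome 7 between 25 and 30 Mb none of 20 Zfp genes was called, though the DKO sum lay at 96.2% of Smarca1 KO without overlap. On chromosome 8 between 65 and 70 Mb the DKO sum was 103.3% of Smarca1 KO, with overlap.

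**Figure D2:**
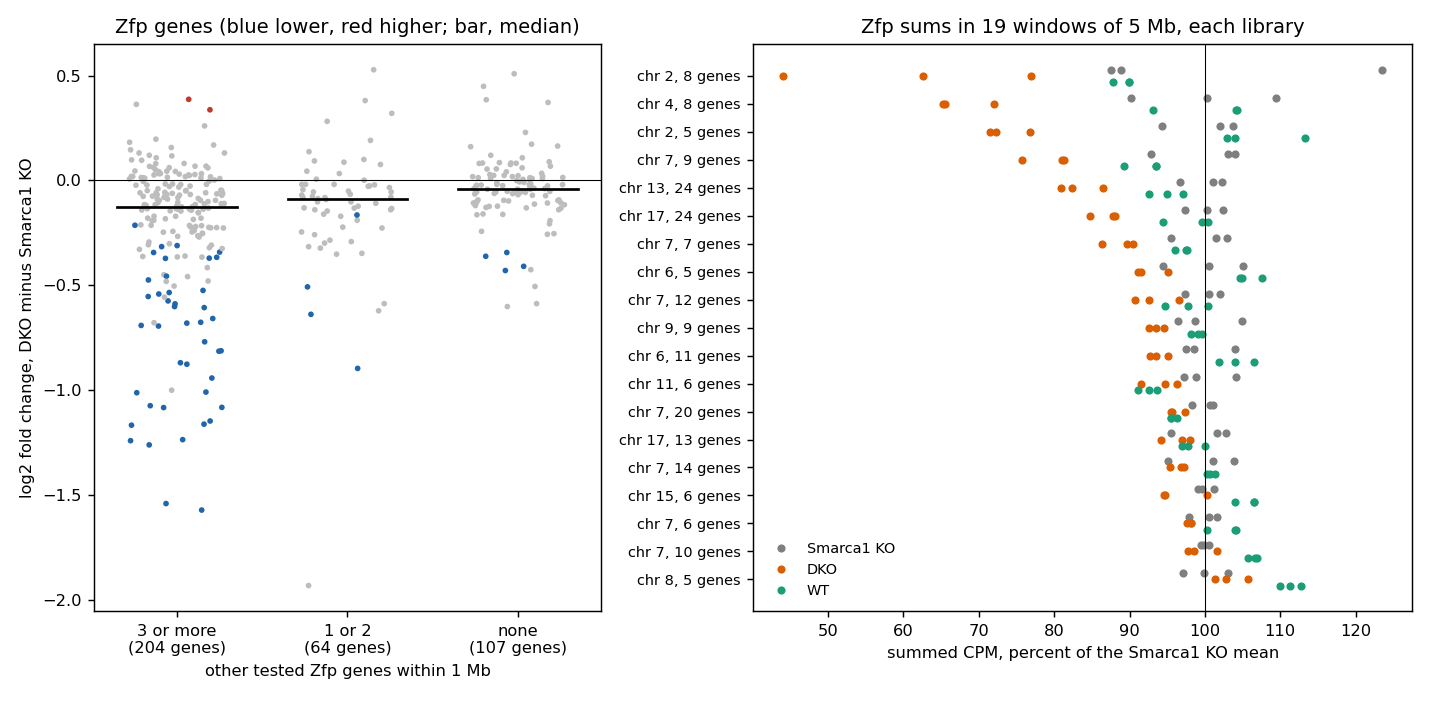
Left, log2 fold change (DKO minus Smarca1 KO) of 375 Zfp genes by the number of other tested Zfp genes within 1 Mb, with called genes in colour and a bar at the median. Right, summed Zfp level per library in 19 windows of 5 Mb, as percent of the Smarca1 KO mean. The DKO points lie below all Smarca1 KO points in 12 windows, with the lowest DKO mean at 61.2%.

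The beta protocadherins, neuronal cell-surface adhesion proteins that give neurons an individual identity, were the group with the highest share of falls. On chromosome 18, 18 of 21 tested beta genes were lower (85.7%, against 2.66% over all genes tested) and none higher. The median log2 fold change of the 21 was −1.27. Their sum was 120.4, 109.1 and 138.0 CPM across Smarca1 KO and 41.5, 55.2 and 55.4 CPM across DKO, with 77.8, 69.6 and 70.6 CPM in WT. The WT libraries thus lay between the other groups. Pcdhb17 fell from 14.9, 14.8 and 16.8 CPM to 5.09, 5.67 and 6.01 CPM (adjusted p = 0.000451, log2 fold change −1.47 with SE 0.13, 6-library adjusted p = 0.00321). Of the 18, 8 were also called with 6 libraries alone. The 3 beta genes not called were Pcdhb12, Pcdhb2 and Pcdhb9, named after their values were seen, at −1.26, −0.98 and −0.23.

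The neighbouring clusters moved in both directions. Of 14 alpha genes 2 were lower, Pcdha12 (−1.22, adjusted p = 0.0084, 6-library adjusted p = 0.0416) and Pcdha11 (−0.96, adjusted p = 0.02, 6-library adjusted p = 0.0791), and the last variable-region gene of the cluster, Pcdhac2, was higher (0.67, adjusted p = 0.0159, 6-library adjusted p = 0.0816). In all, 21.4% of the alpha genes were called, against 4.39% over all genes tested. By mean Pcdha11 was at 9.7 CPM in Smarca1 KO, 5.0 CPM in DKO and 5.4 CPM in WT, so WT lay nearer to DKO. Of 22 gamma genes 3 were lower and 2 higher (22.7% called, against 4.39% over all genes tested). Pcdhga7 rose from 18.9, 18.7 and 21.4 CPM to 28.4, 33.6 and 34.9 CPM (adjusted p = 0.00333, log2 fold change 0.72 with SE 0.089, 6-library adjusted p = 0.0321). Pcdhgc3, the most abundant of those named, rose from 212.1, 218.0 and 260.3 CPM to 275.2, 331.1 and 326.0 CPM (adjusted p = 0.028, log2 fold change 0.43 with SE 0.09, 6-library adjusted p = 0.112). The alpha and gamma genes share 3′ exons within each cluster, and 38.4% to 64.1% of the 31-mers of those named occur in other genes. With 6 libraries alone 1 alpha gene stayed lower, and 1 gamma gene stayed higher and 1 lower. Among 35 cadherins and protocadherins outside the clusters, Pcdh18 (0.26, 6-library adjusted p = 0.15) and Cdh24 (0.21, 6-library adjusted p = 0.0965) rose and Cdh6 (−0.32, 6-library adjusted p = 0.123) fell, and none of these 3 calls held with 6 libraries. The 3 made up 8.57% of that list, against 4.39% called over all genes tested.

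Some genes of intermediate progenitors and neurogenesis fell. Of 21 intermediate progenitor genes 5 were lower (23.8%, against 2.66% over all genes tested) and none higher. Their median log2 fold change was −0.17, against 0.004 over all genes tested, and 19 of the 21 were below 0. Neurod4, a proneural bHLH transcription factor, was at 6.71, 7.61 and 8.56 CPM in the Smarca1 KO libraries, 2.64, 2.69 and 2.40 CPM in the DKO libraries and 7.84, 8.39 and 5.98 CPM in the WT libraries. It fell without overlap (adjusted p = 0.00113, log2 fold change −1.56 with SE 0.16, 6-library adjusted p = 0.00653). Nhlh1, a bHLH factor of newly born neurons, fell from 55.9, 67.2 and 48.1 CPM to 36.1, 35.2 and 32.3 CPM (adjusted p = 0.00634, log2 fold change −0.73 with SE 0.11, 6-library adjusted p = 0.0418). Neurog1, which directs progenitors to the glutamatergic fate, fell from 14.3, 13.8 and 9.51 CPM to 7.60, 7.25 and 7.56 CPM (adjusted p = 0.0174, log2 fold change −0.75 with SE 0.14, 6-library adjusted p = 0.0909), and Smarca1 KO 3 was the lowest of its group. That call was lost with 6 libraries alone, as were those of Mfap4 (−0.45, 6-library adjusted p = 0.0991) and the progenitor factor gene Tfap2c (−0.23, 6-library adjusted p = 0.129).

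The 21 intermediate progenitor genes summed to 2185 to 2442 CPM across Smarca1 KO and 2060 to 2104 CPM across DKO, 90.6% by mean, without overlap. This sum includes the called falls. Of all single genes tested 20.5% showed no overlap, in either direction, and no such share was computed for list sums. In bulk tissue, fewer cells of a type and less RNA per cell cannot be told apart. Eomes, the defining transcription factor of intermediate progenitors and not chosen by the naming rule, was at 215.6, 248.9 and 208.7 CPM across Smarca1 KO and 208.8, 213.4 and 226.0 CPM across DKO, and the groups overlapped. The proneural gene Neurog2, also not chosen by that rule, was at 215.6, 223.4 and 167.5 CPM across Smarca1 KO. Across DKO it was at 173.0, 157.3 and 156.2 CPM, with overlap. Among the 27 bHLH factors of neurogenesis 4 were lower (14.8%, against 2.66% over all genes tested) and none higher, the fourth being Bhlhe40 (−0.52, adjusted p = 0.0175, 6-library adjusted p = 0.0843). Of 30 radial glia genes 2 were lower (6.67%, against 2.66% over all genes tested), the glycolytic enzyme gene Aldoc and the dorsal transcription factor gene Emx1. Emx1 fell from 71.8, 73.8 and 59.4 CPM to 57.9, 51.2 and 50.7 CPM (adjusted p = 0.041, log2 fold change −0.36 with SE 0.082, 6-library adjusted p = 0.139). The Emx1 call was lost with 6 libraries alone. Aldoc fell from 119.3, 126.3 and 114.9 CPM to 66.6, 63.7 and 69.9 CPM (adjusted p = 0.000204, log2 fold change −0.85 with SE 0.066, 6-library adjusted p = 0.00164), whereas the radial glia median was −0.02 and the summed list overlapped between groups.

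Deep-layer neuron genes were called in both directions with 9 libraries and in 1 with 6. Fezf2, the selector gene of corticospinal neurons, fell from 98.3, 113.9 and 108.7 CPM to 73.9, 74.1 and 76.7 CPM, and stood at 95.8, 112.9 and 97.7 CPM in WT (adjusted p = 0.00551, log2 fold change −0.51 with SE 0.072, 6-library adjusted p = 0.0223). Nfia (−0.35, adjusted p = 0.0389, 6-library adjusted p = 0.103) fell as well, while Pcp4 (0.56, adjusted p = 0.015, 6-library adjusted p = 0.0681), Crym (0.90, adjusted p = 0.0271, 6-library adjusted p = 0.0741) and Lmo3 (0.40, adjusted p = 0.0473, 6-library adjusted p = 0.15) rose. In all, 3 of 19 were higher and 2 lower (26.3% called, against 4.39% over all genes tested), with a median of −0.04. Of these 5 calls 1, that of Fezf2, held with 6 libraries. Nrp1, the receptor for class 3 semaphorins, fell from 53.9, 58.9 and 75.7 CPM to 37.1, 36.7 and 34.5 CPM (adjusted p = 0.00491, log2 fold change −0.80 with SE 0.11, 6-library adjusted p = 0.0381). Of 48 axon guidance genes 5 were lower (10.4%, against 2.66% over all genes tested) and none higher, the others being Sema3c, a ligand of that family (−0.56, 6-library adjusted p = 0.0979), Sema5a (−0.35, 6-library adjusted p = 0.131) and the ephrin genes Efna2 (−0.30, 6-library adjusted p = 0.0638) and Efna4 (−0.37, 6-library adjusted p = 0.146). The list's median was −0.07, and 1 of the 5 calls, that of Nrp1, held with 6 libraries.

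**Figure D3:**
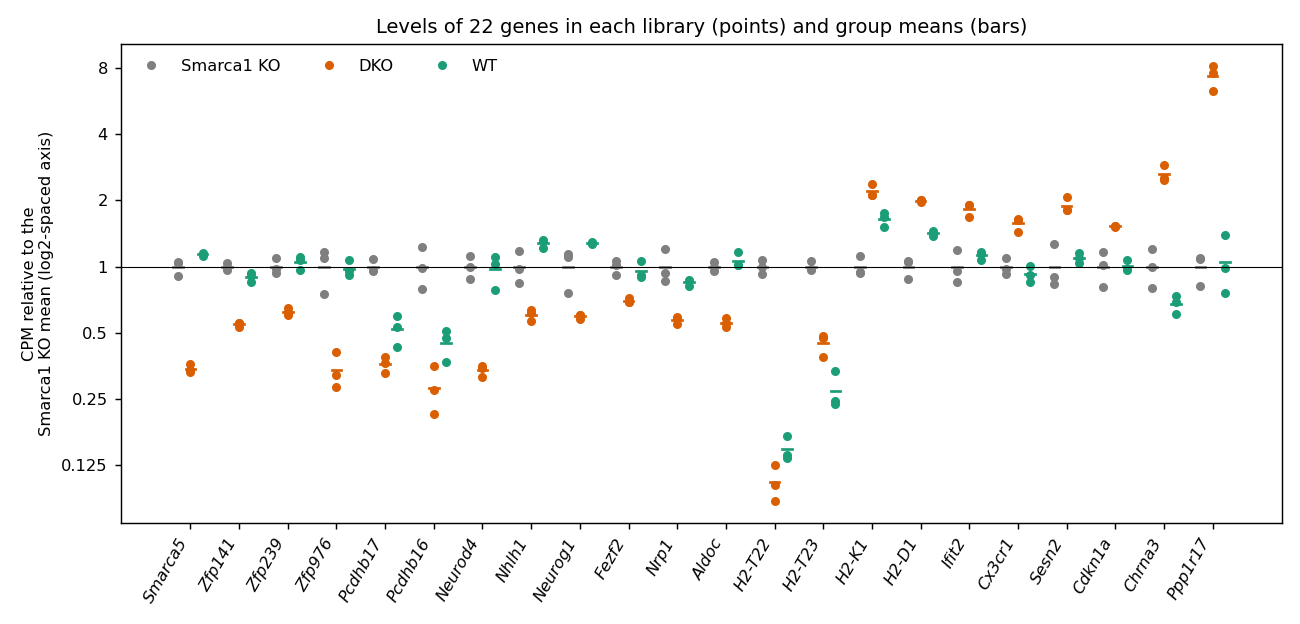
CPM of 22 genes in each library, relative to the mean of the 3 Smarca1 KO libraries (axis spaced by log2). Points are libraries and short bars group means. For every gene shown, as for all 692 called genes, the DKO points lie outside the range of the Smarca1 KO points. For H2-T22, H2-T23, H2-K1, H2-D1, Pcdhb16, Pcdhb17 and Zfp141 all WT points also lie outside that range, on the DKO side.

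Genes of MHC class I antigen presentation moved in opposite directions. MHC class I molecules show peptides at the cell surface and also act in axon and synapse remodelling in the developing brain. The promoters of the 4 class I genes that changed in both fits are shown, of which 2 rose and 2 fell. Each runs 5′ to 3′ on the gene's strand from 250 bases before to 50 bases after the RefSeq start on GRCm38.p6. Capitals mark a kappa B match (GGGGATTCC) in the first 2 and a match to the core of the interferon-stimulated response element (GAAANNGAA, here on the opposite strand) in the last 2. Both strands were searched, and the first of 2 RefSeq starts is shown for H2-K1.
H2-K1 promoter, chr17:34000298-34000597, minus strand: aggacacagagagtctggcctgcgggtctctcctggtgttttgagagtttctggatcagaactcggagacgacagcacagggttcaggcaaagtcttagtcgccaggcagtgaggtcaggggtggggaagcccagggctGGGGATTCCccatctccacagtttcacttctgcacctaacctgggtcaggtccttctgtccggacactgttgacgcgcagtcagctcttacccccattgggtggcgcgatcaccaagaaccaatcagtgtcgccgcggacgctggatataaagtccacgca
H2-D1 promoter, chr17:35262844-35263143, plus strand: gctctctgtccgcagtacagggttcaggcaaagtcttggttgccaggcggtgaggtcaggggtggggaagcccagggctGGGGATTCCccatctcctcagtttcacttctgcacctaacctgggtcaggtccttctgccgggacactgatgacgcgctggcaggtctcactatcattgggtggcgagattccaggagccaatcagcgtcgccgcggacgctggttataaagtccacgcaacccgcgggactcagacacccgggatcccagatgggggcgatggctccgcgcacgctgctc
H2-T22 promoter, chr17:36042693-36042992, minus strand: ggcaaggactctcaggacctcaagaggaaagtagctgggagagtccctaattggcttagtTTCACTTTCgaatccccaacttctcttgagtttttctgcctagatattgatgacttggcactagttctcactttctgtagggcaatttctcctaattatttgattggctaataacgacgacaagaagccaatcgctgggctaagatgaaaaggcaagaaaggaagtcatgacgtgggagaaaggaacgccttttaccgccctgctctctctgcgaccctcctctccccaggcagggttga
H2-T23 promoter, chr17:36032652-36032951, minus strand: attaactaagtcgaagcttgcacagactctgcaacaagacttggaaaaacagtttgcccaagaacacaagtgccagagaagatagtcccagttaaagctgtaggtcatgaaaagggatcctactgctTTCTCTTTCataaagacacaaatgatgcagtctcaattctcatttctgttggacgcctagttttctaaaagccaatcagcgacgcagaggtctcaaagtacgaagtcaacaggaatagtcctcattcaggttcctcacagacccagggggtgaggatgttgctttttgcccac

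The kappa B letters occur in 0.25% and the response element letters in 8.56% of 32851 RefSeq promoters of this length. A match is a description of the letters and not a site, the letters were chosen after seeing the data, and other spellings of either element were not searched. Among the interferon response genes, Ifit3, which rose, has 3 response element matches, and Ifit2, which rose, has no match to either. H2-K1, a classical class I heavy chain, was at 13.4, 11.2 and 11.3 CPM in the Smarca1 KO libraries, 28.2, 25.4 and 25.2 CPM in the DKO libraries and 20, 18.1 and 20.9 CPM in the WT libraries. It rose 2-fold without overlap (adjusted p = 0.000272, log2 fold change 1.14 with SE 0.093, 6-library adjusted p = 0.0051). H2-D1, the other classical heavy chain, rose from 26.8, 22.1 and 26.4 CPM to 49.5, 50.4 and 50.5 CPM, and stood at 34.4, 36.5 and 35.8 CPM in WT (adjusted p = 0.000147, log2 fold change 0.996 with SE 0.07, 6-library adjusted p = 0.00372). The 2 share 11.1% of H2-K1's 31-mers, and their sum was 40.1, 33.3 and 37.7 CPM against 77.8, 75.8 and 75.7 CPM, so the rise does not depend on how reads were divided between them. The peptide transporter gene Tap2 rose from under 1 CPM (1.28, adjusted p = 0.0246, 6-library adjusted p = 0.056). Nlrc5, the transactivator of class I genes (1.59, adjusted p = 0.0359, 6-library adjusted p = 0.0843), and the tapasin gene Tapbp (0.25, adjusted p = 0.0374, 6-library adjusted p = 0.132), both named after their values were seen, rose too.

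The nonclassical genes H2-T22 and H2-T23 fell. H2-T22 was at 3.85, 3.58 and 4.15 CPM in the Smarca1 KO libraries, 0.331, 0.486 and 0.392 CPM in the DKO libraries and 0.538, 0.520 and 0.654 CPM in the WT libraries (adjusted p = 7.13e-05, log2 fold change −3.26 with SE 0.21, 6-library adjusted p = 0.0017). H2-T23, which encodes Qa-1, went from 4.29, 4.23 and 4.63 CPM to 1.71, 2.07 and 2.11 CPM, and stood at 1.08, 1.04 and 1.47 CPM in WT (adjusted p = 0.00712, log2 fold change −1.16 with SE 0.17, 6-library adjusted p = 0.0334). For both genes the Smarca1 KO libraries stood above the DKO and the WT libraries. H2-T22, H2-T23, H2-K1, H2-D1 and Rps18, described further on, all lie on chromosome 17 between 33951999 and 36042747 on GRCm38. Whether the libraries differ in allele or strain origin there was not tested, and this limits what these values say about Cre or Smarca5. H2-T22 shares 47.2% of its 31-mers with H2-T10, and the sum of both was 39.3% of the Smarca1 KO mean in DKO. With H2-T-ps, which holds 12.4% of its 31-mers, H2-T23 summed to 55.9%. Over the whole list of 23, 5 were higher and 2 lower, 2 and 2 with 6 libraries alone, and the median was 0.25. With 9 libraries 30.4% of the list was called, against 4.39% over all genes tested.

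Interferon response genes had few calls. Ifit2, an interferon-induced RNA-binding protein gene, rose from 8.53, 11.97 and 9.58 CPM to 16.9, 19.2 and 19.12 CPM, and stood at 10.7, 11.7 and 11.4 CPM in WT (adjusted p = 0.0055, log2 fold change 0.88 with SE 0.12, 6-library adjusted p = 0.0406). Ifit3 also rose, though it stayed under 1 CPM (1.67, adjusted p = 0.0441, 6-library adjusted p = 0.121), and Ifitm2 fell (−0.59, adjusted p = 0.041, 6-library adjusted p = 0.145). These 3 were the calls among 33 tested (9.09%, against 4.39% over all genes tested), and 1 of the 3 held with 6 libraries. The median log2 fold change of the 33 was 0.36, with 27 above 0. The list summed to 129.0 to 146.0 CPM across Smarca1 KO and 145.1 to 164.6 CPM across DKO, with a slight overlap.

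A few microglia genes rose. Cx3cr1, the fractalkine receptor of microglia, was at 9.23, 9.69 and 10.9 CPM in the Smarca1 KO libraries, 16.2, 14.3 and 16.4 CPM in the DKO libraries and 8.43, 9.12 and 10 CPM in the WT libraries (adjusted p = 0.00807, log2 fold change 0.66 with SE 0.1, 6-library adjusted p = 0.0418). Lyz2 (1.25, adjusted p = 0.0374, 6-library adjusted p = 0.129) and Trem2 (0.81, adjusted p = 0.0481, 6-library adjusted p = 0.0979) rose at low levels. In all, 3 of 24 were called (12.5%, against 4.39% over all genes tested), with a median of 0.29 and 22 of 24 above 0. With 6 libraries 1, that of Cx3cr1, held. The 24 genes summed to 125.8 CPM in Smarca1 KO 1, the highest of its group, and to 158.3, 120.6 and 145.1 CPM across DKO, so DKO 2 lay below Smarca1 KO 1. The lysosomal protease gene Ctsd, active in many cell types, rose from 111.7, 106.5 and 113.6 CPM to 146.7, 136.0 and 154.5 CPM (adjusted p = 0.00382, log2 fold change 0.40 with SE 0.051, 6-library adjusted p = 0.0367). Grn (0.34, 6-library adjusted p = 0.0868) and Npc1 (0.21, 6-library adjusted p = 0.12) rose and Ctsz (−0.28, 6-library adjusted p = 0.0707) fell among 39 V-ATPase and lysosome genes, whose median was 0.08. With Ctsd, 10.3% of that list was called, against 4.39% over all genes tested. The part of the microglia markers in the class I, interferon and lysosome values was not tested.

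**Figure D4:**
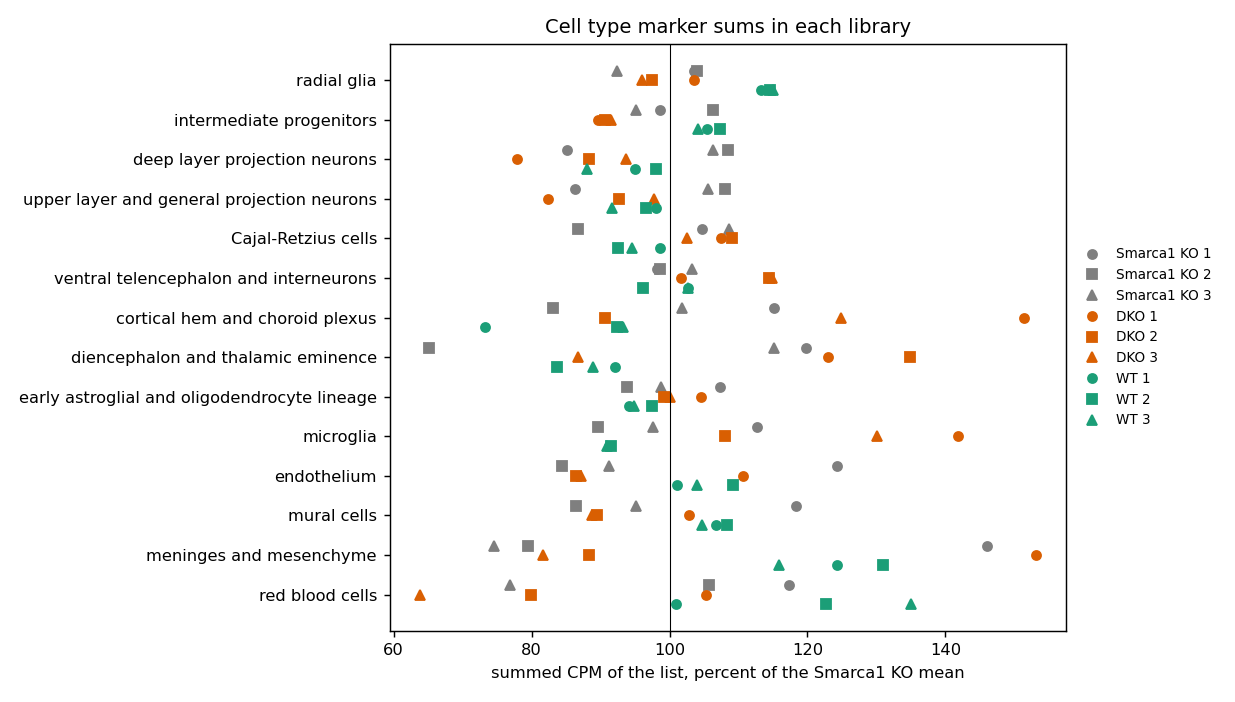
Summed CPM of 14 cell type lists in each library, as percent of the Smarca1 KO mean (line at 100). Circles, squares and triangles are replicates 1, 2 and 3. Meninges and mesenchyme stand higher in replicate 1 of Smarca1 KO and DKO and in WT than in the other Smarca1 KO and DKO libraries. Intermediate progenitors lie lower in all 3 DKO libraries.

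Some targets of p53, which responds to DNA damage and other stress, rose. Of 39 tested, 7 were higher and 1, Tob1, lower (−0.20, 6-library adjusted p = 0.158), and the list's median was 0.07. In all, 20.5% of the list was called, against 4.39% over all genes tested. Sesn2, a stress-induced inhibitor of mTORC1, was at 11.3, 7.47 and 8.05 CPM in the Smarca1 KO libraries, 16.2, 16.1 and 18.5 CPM in the DKO libraries and 9.30, 9.74 and 10.4 CPM in the WT libraries (adjusted p = 0.00961, log2 fold change 0.92 with SE 0.15, 6-library adjusted p = 0.056). The DKO libraries were the highest without overlap, but the call was lost with 6 libraries. Cdkn1a, the cell cycle inhibitor p21, was at 16.5, 11.4 and 14.4 CPM and 21.4, 21.6 and 21.6 CPM (adjusted p = 0.0204, log2 fold change 0.61 with SE 0.12, 6-library adjusted p = 0.0877). Ccng1 (0.38, 6-library adjusted p = 0.0995), the apoptosome gene Apaf1 (0.24, 6-library adjusted p = 0.0979), Pidd1 (0.33, 6-library adjusted p = 0.129), and Eda2r (0.89, 6-library adjusted p = 0.0937) and Ddb2 (0.39, 6-library adjusted p = 0.165), both named after their values were seen, rose as well. None of the 8 was called with 6 libraries alone. By mean Apaf1 was at 57.55 CPM in Smarca1 KO, 67.8 CPM in DKO and 64.75 CPM in WT, so WT lay nearer to DKO.

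Other stress programmes showed few calls. The inducible chaperone genes Hspa1b (1.19, adjusted p = 0.0332, 6-library adjusted p = 0.0768) and Hspa1a (1.33, adjusted p = 0.0339, 6-library adjusted p = 0.0541) rose with Hspa2 (0.59, adjusted p = 0.046, 6-library adjusted p = 0.127), 3 of 35 heat shock genes, whose median was −0.02, and none of the 3 calls held with 6 libraries. The 3 made up 8.57% of the heat shock genes, against 4.39% called over all genes tested. Hspa1a and Hspa1b share most of their sequence. Of 42 genes of the integrated stress and unfolded protein responses, Sesn2 rose and Ddit4 (−0.24, 6-library adjusted p = 0.0995) and Manf (−0.23, 6-library adjusted p = 0.112) fell. These calls made up 7.14% of the list, against 4.39% over all genes tested. By mean Manf was at 75.7 CPM in Smarca1 KO, 64.4 CPM in DKO and 67.0 CPM in WT, so WT lay nearer to DKO. Among 18 cell cycle inhibitors Cdkn1a and Ccng1 rose while Cdkn1b (−0.31, 6-library adjusted p = 0.123) and Tob1 fell (22.2% called, against 4.39% over all genes tested). No gene of the G1/S and replication list was called by edgeR among 50 tested (6 with an unadjusted p under 0.05, 2 called by DESeq2), and of 46 mitotic genes only Ccnb2 was called (−0.44, adjusted p = 0.0394, 6-library adjusted p = 0.127), with a median of 0.11.

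**Figure D5:**
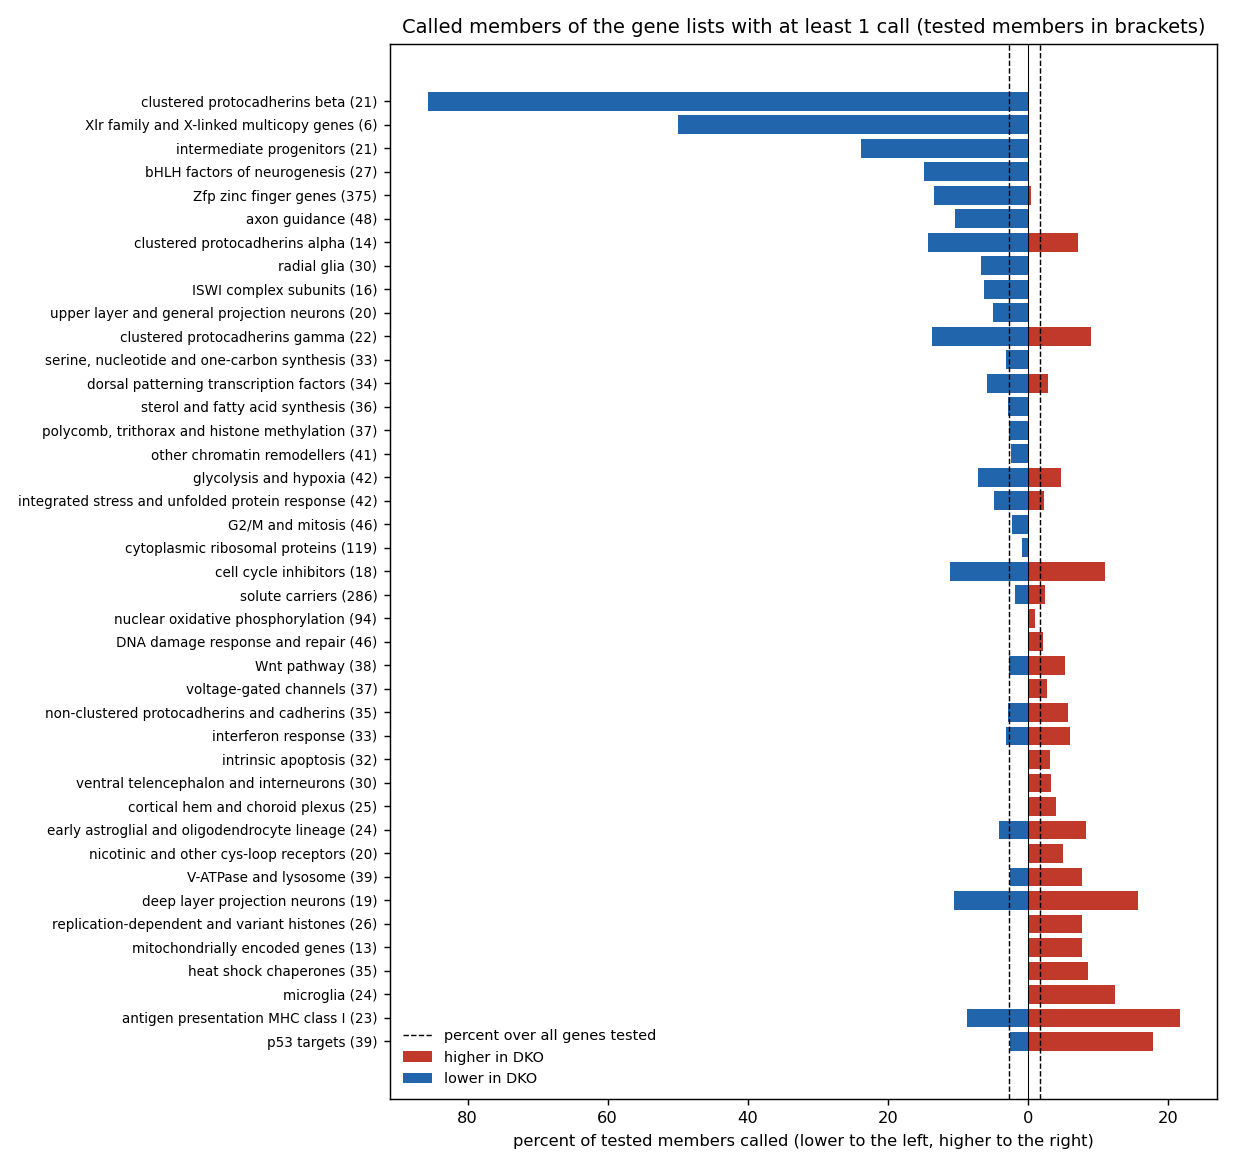
Percent of tested members called in each gene list with at least 1 call, lower in DKO to the left and higher to the right, with the number tested in brackets. Dashed lines mark the percentages over all genes tested, 2.66% lower and 1.73% higher. The beta protocadherins, at 18 of 21 lower, extend furthest.

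Among chromatin genes the changes were few. Bmi1, a subunit of Polycomb repressive complex 1, fell from 134.3, 149.9 and 134.0 CPM to 103.2, 107.6 and 108.1 CPM (adjusted p = 0.00382, log2 fold change −0.39 with SE 0.05, 6-library adjusted p = 0.0348), the single call among 37 Polycomb, trithorax and histone methylation genes. Arid2, a subunit of the PBAF remodeller, fell slightly (−0.20, adjusted p = 0.014, 6-library adjusted p = 0.0816), the single call among 41 other remodellers. H3f3b, which encodes the replacement histone H3.3, rose from 910.6, 969.8 and 924.0 CPM to 1175, 1222 and 1171 CPM (adjusted p = 0.00219, log2 fold change 0.35 with SE 0.039, 6-library adjusted p = 0.0292). The linker histone gene H1f0 rose too (0.37, adjusted p = 0.0186, 6-library adjusted p = 0.0855), though its call and that of Arid2 were lost with 6 libraries. Neither the heterochromatin and DNA methylation list of 26 (2 at an unadjusted p under 0.05, 0 by DESeq2) nor the CTCF, cohesin and condensin list of 23 (2 and 1) held a call by edgeR.

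The solute carriers were close to the background. Of 286 solute carriers 7 were higher and 5 lower (4.20% called). Slc25a10, the mitochondrial dicarboxylate carrier, rose from 22.8, 22.9 and 19.8 CPM to 33.5, 31.96 and 30.1 CPM (adjusted p = 0.00457, log2 fold change 0.54 with SE 0.071, 6-library adjusted p = 0.0365), and Slc25a20, the carnitine carrier, fell from 27.7, 28.4 and 25.5 CPM to 18.6, 17.3 and 18.8 CPM (adjusted p = 0.00494, log2 fold change −0.58 with SE 0.078, 6-library adjusted p = 0.0267). Both calls held with 6 libraries. In the glycolysis and hypoxia list 2 of 42 were higher, the phosphofructokinase gene Pfkl (0.23, 6-library adjusted p = 0.0816) and the neuronal glucose transporter gene Slc2a3 (0.56, 6-library adjusted p = 0.0768), and 3 were lower, Aldoc among them. In all, 11.9% of this list was called, against 4.39% over all genes tested. By mean Pfkl was at 131 CPM in Smarca1 KO, 153.7 CPM in DKO and 145.6 CPM in WT. The fatty acid elongase gene Elovl6 fell (−0.28, adjusted p = 0.00716, 6-library adjusted p = 0.0462).

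Several single genes changed strongly. Ppp1r17, an inhibitor of protein phosphatases, went from 1.04, 1.399 and 1.38 CPM to 8.04, 9.71 and 10.4 CPM, and stood at 1.25, 0.971 and 1.76 CPM in WT (adjusted p = 0.000203, log2 fold change 2.89 with SE 0.22, 6-library adjusted p = 0.00156). The rise was the largest among those named with detectable reference levels. Plcd4, a phospholipase C, rose from 3.09, 3.21 and 3.21 CPM to 9.67, 10.8 and 10.5 CPM (adjusted p = 6.02e-05, log2 fold change 1.70 with SE 0.1, 6-library adjusted p = 0.00174), with replicates close together in both groups. Arg2, the mitochondrial arginase, rose from 3.46, 3.69 and 3.90 CPM to 8.90, 9.39 and 9.52 CPM (adjusted p = 0.000451, log2 fold change 1.33 with SE 0.12, 6-library adjusted p = 0.00561). Chrna3, a nicotinic acetylcholine receptor subunit, rose from 4.60, 3.07 and 3.83 CPM to 11.04, 9.71 and 9.45 CPM, and stood at 2.64, 2.32 and 2.81 CPM in WT (adjusted p = 0.00248, log2 fold change 1.39 with SE 0.16, 6-library adjusted p = 0.0233). Zcwpw1, a reader of histone methylation best known from meiosis, rose from 9.17, 9.72 and 8.63 CPM to 18.98, 18.8 and 18.7 CPM (adjusted p = 0.000189, log2 fold change 1.03 with SE 0.078, 6-library adjusted p = 0.00372). These 5 genes passed with 6 libraries as well.

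Rises of 2-fold or more were also called for the membrane and signalling genes Rhcg (2.02, 6-library adjusted p = 0.0305), Stk26 (1.79, 6-library adjusted p = 0.034), Itgb4 (1.39, 6-library adjusted p = 0.036), Sypl2 (1.48, 6-library adjusted p = 0.00693) and Synpr (1.14, 6-library adjusted p = 0.0406), for the transcription factor gene Cebpa (1.56, 6-library adjusted p = 0.0216) and for Fndc3c1 (2.10, 6-library adjusted p = 0.0376). Among falls outside the arrays, Ppp1r14a, an inhibitor of myosin phosphatase, went from 6.63, 5.53 and 4.19 CPM to 1.54, 2.10 and 1.26 CPM (adjusted p = 0.00388, log2 fold change −1.75 with SE 0.22, 6-library adjusted p = 0.0365). Emid1, an extracellular matrix gene, fell from 10.6, 10.3 and 10.9 CPM to 4.30, 4.60 and 4.20 CPM (adjusted p = 0.000181, log2 fold change −1.28 with SE 0.095, 6-library adjusted p = 0.00488), and the metalloprotease gene Tll2 by 1.21 on the log2 scale (6-library adjusted p = 0.04). Abundant genes that fell by less included Ddah2, which degrades methylated arginine (214.7, 223.0 and 219.3 CPM to 161.4, 152.7 and 151.7 CPM, adjusted p = 0.000189, log2 fold change −0.50 with SE 0.038, 6-library adjusted p = 0.00579). Mak16, a ribosome assembly factor, fell from 52.2, 53.2 and 46.9 CPM to 30.7, 27.1 and 29.01 CPM (adjusted p = 0.000247, log2 fold change −0.81 with SE 0.065, 6-library adjusted p = 0.00561). Ltbp4, which binds latent TGF-beta, rose from 56.3, 52.6 and 50.2 CPM to 82.2, 88.5 and 81.8 CPM (adjusted p = 0.000266, log2 fold change 0.66 with SE 0.054, 6-library adjusted p = 0.00579). No overlap between the groups was a condition for choosing the genes of this paragraph.

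Some leading calls rest on genes with near-identical copies. Rps18, of the small ribosomal subunit, was at 228.9, 245.0 and 208.6 CPM in the Smarca1 KO libraries, 43.7, 41.2 and 39.5 CPM in the DKO libraries and 43.7, 38.1 and 38.5 CPM in the WT libraries (adjusted p = 5.67e-07, log2 fold change −2.46 with SE 0.076, 6-library adjusted p = 3.75e-05). Its copies Gm10260 and Gm11361, named after their values were seen, moved the opposite way, by 1.16 and 1.41. For Rps18 too the Smarca1 KO libraries stood apart from both DKO and WT. Summed over Rps18 and the 3 genes that hold at least 10% of its 31-mers, the level was 385.2, 416.4 and 352.3 CPM across Smarca1 KO and 425.1, 384.0 and 394.0 CPM across DKO, with overlap. Pgk1-rs7, all of whose 31-mers also occur in Pgk1, had 0 counts in the 3 Smarca1 KO libraries and 9.31, 9.20 and 7.84 CPM across DKO, at least 90-fold higher against a floor of 3 counts per library, a bound for counting error only. The WT libraries stood at 7.68, 8.60 and 6.28 CPM, near the DKO level, so the Smarca1 KO libraries were the ones apart. With its copies the sum overlapped between groups. The 3 called Xlr genes of the X chromosome all fell, Xlr3b (−1.90, 6-library adjusted p = 0.0818), Xlr3a (−2.28, 6-library adjusted p = 0.056) and Xlr4c (−2.49), with 60.2% to 69.7% of their 31-mers shared. Xlr4c was not tested with 6 libraries and counted few reads, at 0.165, 0.0648 and 0.131 CPM in DKO.

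The calls were spread over the genome. On chromosome 8, 3 of 90 tested genes within 5 Mb of Smarca5 were called (3.33%, against 4.39% over all genes tested), and none of 7 within 1 Mb. Among the 3 were Smad1 (0.16, 6-library adjusted p = 0.169) and Mri1 (−0.62, 6-library adjusted p = 0.0321). By mean Smad1 was at 59.8 CPM in Smarca1 KO, 66.7 CPM in DKO and 65.5 CPM in WT. Mri1 was at 16.4 CPM in Smarca1 KO, 10.6 CPM in DKO and 11.1 CPM in WT. For both genes WT lay near DKO, and Smarca1 KO was the group apart. Among nuclear chromosomes the share called was highest on chromosome 18 (9.32%), which carries the protocadherins, and chromosome 17 (7.59%), which carries the MHC and a Zfp array. Among 313 windows of 5 Mb with at least 20 tested genes, 21 had over 10% called and 71 had none. The protocadherin window led, with 26 of 109 called.

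Lists of other cell types that the dissection could hold gave few calls. None was called by edgeR among 15 Cajal-Retzius genes (6 with an unadjusted p under 0.05, 1 by DESeq2), 21 endothelial (4 and 1), 15 mural (0 and 0), 23 meningeal (0 and 0), 15 red cell (1 and 0) or 8 diencephalic genes (1 and 0). The median log2 fold change was 0.32 for Cajal-Retzius genes (13 of 15 above 0) and 0.22 for hem and choroid plexus genes (22 of 25). It was −0.11 for endothelial genes (3 of 21 above 0) and −0.08 for mural genes (3 of 15). Of 30 ventral telencephalon and interneuron genes, Sp8 was called higher (0.38, adjusted p = 0.0243, 6-library adjusted p = 0.0816), with a median of 0.18 and 26 above 0. Wnt5a, a ligand made at the cortical hem, rose (0.53, adjusted p = 0.0488, 6-library adjusted p = 0.14), the single call among 25 hem and choroid plexus genes, while the cortical Wnt7b fell (−0.42, adjusted p = 0.0154, 6-library adjusted p = 0.0636). Of 24 early astroglial and oligodendrocyte genes, the adhesion gene Hepacam (1.61, adjusted p = 0.0404, 6-library adjusted p = 0.124) and the metallothionein gene Mt2 (0.95, adjusted p = 0.0405, 6-library adjusted p = 0.128) rose, and the chloride channel gene Ttyh1 (−0.40, adjusted p = 0.0227, 6-library adjusted p = 0.0909) fell. These calls made up 12.5% of the 24, against 4.39% over all genes tested. None of the calls in this group of lists, nor that of Wnt7b, held with 6 libraries. Choroid plexus RNA varied between libraries, with Ttr, named as its usual marker after values were seen, at 302.7, 230.9 and 321.8 CPM across Smarca1 KO and 448.7, 229.5 and 408.2 CPM across DKO.

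In 11 further lists edgeR called no gene. These were Notch (28 tested, 5 with an unadjusted p under 0.05, 2 called by DESeq2), Shh, Fgf and Bmp signalling (37, 4 and 3), early neuron cytoskeleton (34, 4 and 0) and synaptic genes (42, 8 and 2). Immediate early genes (27, 8 and 0), microcephaly and centrosome genes (28, 4 and 1), ribosome biogenesis (42, 1 and 1) and splicing factors (45, 3 and 0) also held none. The same was true of imprinted genes (40, 8 and 3), germline genes (5, 0 and 0) and the Y-linked genes (4, 3 and 1). A list without calls does not show that its genes were unchanged.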

How the data were processed

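RNA was measured in 9 libraries, made with a stranded mRNA kit per the labels' protocols. The authors deposited 1 Salmon 1.4.0 table per library (tool and version per the submitters' processing notes; mm10 and DESeq2 stand there with no role). The deposited values used were estimated counts per transcript, with the deposited TPM and the effective length (per the file headers) used for offsets in an alternative. The sources used here do not give the index or the strand setting, so overlapping and antisense genes cannot be told apart. Of 116546 transcripts, 115977 matched GENCODE M21 by identifier, and 569 with 0.104% to 0.116% of reads did not. Counts were summed over 35498 genes and rounded.

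edgeR 4.0.16 (limma 3.58.1, R 4.3.3) fitted group means to all 9 libraries, with TMM (factors 0.991 to 1.015), filterByExpr and the quasi-likelihood F test. Benjamini-Hochberg adjustment ran over 15773 genes, with a call under 0.05. The standard error is the log2 fold change divided by the square root of F. Sequence sharing is the percent of a gene's 31-mers found in other genes. The fit was run on simulated data with the same spread for all genes and groups. That run therefore says nothing about the unequal spread of the real groups.

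Named genes were Smarca5, Smarca1, the 25 largest rises and falls (mean log2 CPM 1 or more), the 10 with the smallest p in each direction at a mean of at least 30 CPM, up to 5 called members per list, and calls within 5 Mb of Smarca5, of which 1 is not reported here. For the sets by size and p, groups had not to overlap and symbols not to be predicted models. Members and the 61 lists were chosen with earlier results of these data known, and no set test was run. Promoters are from RefSeq on GRCm38.p6, and all genes shown matched by symbol. Alternatives were DESeq2 1.42.0, other scalings and filters, length offsets, a replicate block, a Y-linked covariate, 6 libraries alone and leaving out libraries.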

Additional observations from a re-analysis of the deposited data

How the results depend on the processing

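None of the 146 named calls reversed its direction under the 19 alternatives, and Smarca5 was called in all 19. Over all 692 calls, 691 kept their sign with effective-length offsets. Called genes numbered 692 (273 higher, 419 lower). They were 1135 (472 and 663) with DESeq2, 389 (146 and 243) with effective-length offsets, 181 (68 and 113) with 6 libraries alone, 11 (4 and 7) with a Y-linked covariate, and 398 (148 and 250) without DKO 1 and Smarca1 KO 1 together. Leaving out 1 library gave 286 to 795 calls, with 100 to 344 higher and 183 to 451 lower. Lower Zfp genes numbered 50, and 19 with 6 libraries alone, 0 with the covariate, 29 without DKO 1 and Smarca1 KO 1, 25 with under 10% of 31-mers shared, and 27 to 45 leaving out 1 library. Lower beta protocadherins numbered 18, and 9 with 6 libraries alone and 1 with the covariate. The groups took up 0.771 of the variance of the Y-linked covariate, so the covariate and the groups cannot be told apart, and its 11 calls say little about stability. Fewer libraries also leave fewer degrees of freedom. The 9-library fit also takes in the spread of WT (4.8%), which was below that of Smarca1 KO (13.3%) and DKO (11.2%). The part of either in the number of calls was not tested, nor were other causes. RLE size factors, library totals, a minimum mean of 1 CPM and no filter kept all these counts within 1.5 times.

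With the replicate number as a block, 529 genes were called (200 higher, 329 lower), with 41 Zfp and 18 beta protocadherin genes lower. Same-numbered Smarca1 KO and DKO libraries had correlated deviations of 0.35, −0.035 and 0.106, so the numbers were not taken as pairs.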
